A study of Mus musculus with 7 samples.

Results

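A set of 100 genes was followed in sorted mouse β-cells whose messenger RNA was lower in obese diabetic db/db animals than in lean db/+ animals and near the lean level again in db/db animals without β-cell Aldh1a3. The set was chosen by its measured values. Levels were expressed as CPM, the estimated count of a gene divided by the sum of its library and scaled so that each library sums to 1000000. CPM are not divided by transcript length, so levels are compared within a gene and not between genes. Of 35013 genes, 7150 had a db/+ mean of at least 10 CPM, and in 912 of these every db/+ library was above both db/db libraries. In 345 both KO_db/db libraries were above both db/db libraries as well, and in 238 the KO_db/db mean reached at least 0.75 of the db/+ mean. Removal of 4 predicted, unnamed or pseudogene symbols left 234 candidates, of which the 100 with the lowest log2 ratio of db/db to db/+, after adding 1 CPM to both, were taken. Every comparison of the 3 groups therefore entered the choice, and the levels below are given as a description with no test.

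Sorted β-cells of 7 adult mice were sequenced, 1 library per mouse. The genotypes compared were 3, with 3 db/+, 2 db/db and 2 KO_db/db mice. The db/db mice lack functional leptin receptor and carried RIP-Cre Herr, a Cre recombinase driven by the rat insulin promoter, together with 1 floxed Aldh1a3 allele, 1 Cre-activated tdTomato allele and Lepr db/db. The db/+ mice were their lean counterparts, with the same Cre, floxed Aldh1a3 and tdTomato alleles and Lepr db/+. In KO_db/db mice, which were Lepr db/db with the same Cre and tdTomato alleles but Aldh1a3 fl/fl, both Aldh1a3 alleles could be deleted in β-cells. All groups thus carried the Cre, which acts only in cells that use the insulin promoter, and no group had intact Aldh1a3 on both alleles. The Lepr db allele came from a C57BL/6J-based line, mice of both sexes were used in the study, and animals were fasted before their islets were isolated. Library totals ranged from 27496645 to 35852785 counts. In the libraries labelled β-cells, Ins1 and Ins2 together made up 32.2%, 33.03% and 36.1% of counts in db/+, 23.5% and 21.8% in db/db, and 24.4% and 23.4% in KO_db/db.

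The level of the targeted gene followed the labels, as a partial check, since the position of the floxed part relative to the counted transcripts is not given in the sources used here. Aldh1a3 encodes a retinaldehyde dehydrogenase that marks failing, dedifferentiated β-cells. It was measured at 0.178, 0.0638 and 0.514 CPM in db/+, at 118 and 238 CPM in db/db, and at 4.40 and 9.06 CPM in KO_db/db. The KO_db/db libraries stood apart in genes of the exocrine pancreas. The summed level of 44 acinar markers was 180739 CPM in KO_db/db mouse 1 and 20482 CPM in mouse 2, a ratio of 8.82, against 428 to 592 CPM in db/db and 70.6 to 342 CPM in db/+. None of the 100 genes is in that marker list, of which 6 genes reached the floor of 10 CPM in db/+. Since a CPM is a share of a library, these transcripts lower the CPM of every other gene in KO_db/db mouse 1, and the median ratio of mouse 1 to mouse 2 over 7000 genes with at least 10 CPM in db/+ was 0.771. For the 100 genes it was 0.856, with a range of 0.475 to 2.21.

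A mature β-cell couples the burning of glucose to the release of insulin. Within its mitochondria pyruvate is used by both pyruvate dehydrogenase and pyruvate carboxylase, the metabolic signal closes potassium channels, and calcium then drives the fusion of insulin granules. Surface receptors adjust the response, and transcription factors such as MAFA keep the genes of the mature cell active. In long-standing diabetes β-cells lose part of this program, a state called dedifferentiation. In a bulk library, fewer cells of a type and less RNA per cell cannot be told apart.

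MAFA binds DNA through the half-site TGCTGA, and stretches that hold these letters upstream of a start site show what was searched for in the 100 genes. RefSeq promoter windows (GRCm38.p6, 250 bases before to 50 after the start) matched 84 of the 100 by symbol. For a gene with several windows, that of the most upstream start was used. The 6 stretches below belong to genes of 3 roles, namely receptors and signaling proteins, mitochondrial enzymes of amino acid breakdown and cilium proteins. They lie wholly upstream of the annotated start, read 5′ to 3′ along the strand of the gene, and carry in capitals the half-site, which is written TCAGCA where it lies on the opposite strand. They were picked after the matches were known.
Npr1, chr3:90466057-90466116, minus strand: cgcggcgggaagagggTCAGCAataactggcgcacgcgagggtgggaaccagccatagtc
Rasgrf1, chr9:89909575-89909634, plus strand: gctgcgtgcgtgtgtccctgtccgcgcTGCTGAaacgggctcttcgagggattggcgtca
Aldh4a1, chr4:139622760-139622819, plus strand: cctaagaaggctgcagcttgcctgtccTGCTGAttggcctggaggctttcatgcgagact
Hibadh, chr6:52640467-52640526, minus strand: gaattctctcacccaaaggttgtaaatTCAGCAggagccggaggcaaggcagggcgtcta
Ift140, chr17:25015879-25015938, plus strand: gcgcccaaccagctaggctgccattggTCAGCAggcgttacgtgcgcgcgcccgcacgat
Wdpcp, chr11:21572038-21572097, plus strand: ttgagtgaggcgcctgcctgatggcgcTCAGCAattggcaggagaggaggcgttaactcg

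Across the 100 genes, the db/db mean ranged from 8.01% to 62.9% of the db/+ mean, with a median of 50.4%. It was under 50% in 48 genes and under 25% in 3, Cd79a, Stk32b and Gcat. The KO_db/db mean ranged from 75.6% to 192% of the db/+ mean, with a median of 93.1%, and was 1.29 to 13.8 times the db/db mean. The db/+ means ran from 10.8 to 1213 CPM. The genes together held 0.833% to 0.878% of counts in db/+, 0.391% and 0.462% in db/db, and 0.801% and 0.923% in KO_db/db. The rule set these directions. For the 7000 genes with at least 10 CPM in db/+ the median db/db level was 132% and the median KO_db/db level 111% of db/+.

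**Figure D1:**
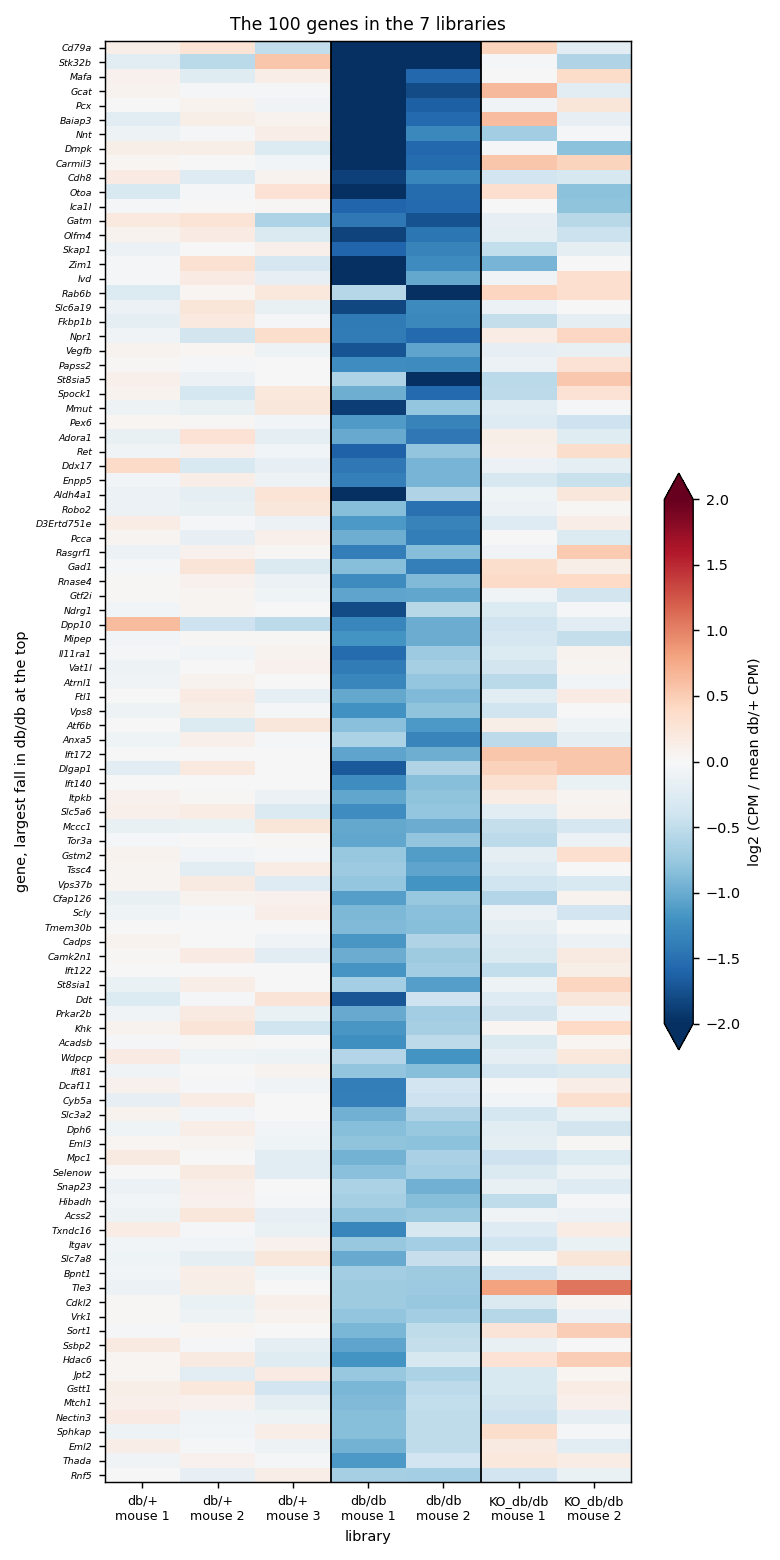
Level of each of the 100 genes (rows, largest difference between db/db and db/+ at the top) in each of the 7 libraries (columns), as log2 of CPM over the mean db/+ CPM; blue is lower and red higher than the db/+ mean, and the scale stops at 2 in either direction. Both db/db columns are blue throughout, because the genes were chosen so, while the KO_db/db columns hold both colors.

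MAFA, the transcription factor of mature β-cells that binds the insulin promoter, had rank 3 by the log2 ratio of db/db to db/+ after adding 1 CPM. Mafa was at 359, 286 and 369 CPM in db/+, at 69.3 and 113 CPM in db/db, and at 341 and 438 CPM in KO_db/db. Both KO_db/db values were within or above the db/+ range, and the mean was 27.01% of db/+ in db/db and 115% in KO_db/db. It was the only one of 42 listed β-cell transcription factors among the 100. Of the 42, 30 reached 10 CPM in db/+, and of all 7000 genes at that level 100 were taken, so nothing is read from this count. Pdx1, the factor of pancreas formation and β-cell identity, was also below every db/+ library in db/db. The mean of Pdx1 was 78.9% of db/+ in db/db and 78.6% in KO_db/db. The transcription and RNA group had 7 genes, with a median of 48.2% in db/db and 94.9% in KO_db/db.

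Tle3 encodes a corepressor of the Groucho family, which acts through the DNA-binding factors that recruit it. It was at 48.2, 56.7 and 52.1 CPM in db/+, at 32.1 and 31.7 CPM in db/db, and at 91.1 and 109 CPM in KO_db/db. The KO_db/db libraries lay wholly above db/+, and their mean of 192% of db/+ was the highest of the set. Zim1, an imprinted zinc-finger gene, was near the other limit, at 13.2, 16.8 and 10.8 CPM in db/+, 3.39 and 5.68 CPM in db/db, and 7.13 and 13.6 CPM in KO_db/db. The KO_db/db libraries of Zim1 differed by a factor of 0.526, mouse 1 over mouse 2. The other 4 were Gtf2i, Ssbp2, Ddx17 and Atf6b, with db/db means of 44.9% to 60.2% and KO_db/db means of 86.2% to 102% of db/+. ATF6B is an endoplasmic reticulum protein whose cleaved form enters the nucleus, and DDX17 is an RNA helicase.

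The 18 receptors and signaling proteins had a median of 45.3% of db/+ in db/db and of 95.0% in KO_db/db, and in 6 of them the KO_db/db mean exceeded db/+. Npr1 encodes the receptor for atrial natriuretic peptide, which makes cyclic GMP. Its level was 12.02, 9.76 and 15.97 CPM in db/+, 4.80 and 4.26 CPM in db/db, and 14.0 and 16.7 CPM in KO_db/db. The KO_db/db mean of Npr1 was 122% and the db/db mean 36.01% of db/+. Adora1, the adenosine receptor that lowers cyclic AMP, was at 32.3, 43.6 and 31.03 CPM in db/+, 17.8 and 13.2 CPM in db/db, and 38.5 and 30.1 CPM in KO_db/db, where mouse 1 was within the db/+ range and mouse 2 just below it. These were 2 of 46 listed receptors of the β-cell surface, of which 21 reached 10 CPM in db/+, beside 100 of all 7000 genes at that level. Gipr, the receptor for the incretin GIP, was also below every db/+ library in db/db but reached 42.7% of db/+ in KO_db/db and stayed outside the rule.

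Several of these genes act on calcium and cyclic AMP. Fkbp1b, a protein that binds ryanodine receptor calcium channels, was at 79.1, 102 and 86.8 CPM in db/+, 33.7 and 36.5 CPM in db/db, and 64.4 and 79.0 CPM in KO_db/db. Both KO_db/db values were below the db/+ range. Itpkb, a kinase that phosphorylates inositol trisphosphate, was at 231, 221 and 200.3 CPM in db/+, 105 and 124 CPM in db/db, and 239.7 and 225 CPM in KO_db/db. Camk2n1, an inhibitor of the calmodulin-dependent kinase CaMKII, was at 352, 390.4 and 299.7 CPM in db/+, 175 and 211 CPM in db/db, and 284 and 392 CPM in KO_db/db, so that only KO_db/db mouse 1 was below the db/+ range. Sphkap, an anchoring protein of protein kinase A, stood at 199, 205 and 234 CPM in db/+, 118 and 149 CPM in db/db, and 271 and 207 CPM in KO_db/db. The regulatory subunit of that kinase, Prkar2b, had means of 55.8% of db/+ in db/db and 86.5% in KO_db/db. Rasgrf1, a calcium-activated exchange factor for Ras whose promoter stretch is printed above, had means of 46.9% and 120%.

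Several other genes of this group are known from lymphocytes, muscle or the nervous system. Cd79a, a chain of the B-cell antigen receptor, was at 28.1, 31.4 and 18.6 CPM in db/+, 1.20 and 2.97 CPM in db/db, and 35.3 and 22.3 CPM in KO_db/db. Cd79b was at 0.382 CPM or less and Ptprc at 0.176 CPM or less in every library. Ighm, the immunoglobulin heavy chain, was at 0.356, 3.25 and 0.0907 CPM in db/+, 0.176 and 0.941 CPM in db/db, and 0.0364 and 1.70 CPM in KO_db/db. The 14 lymphocyte markers summed to at most 3.99 CPM. Stk32b, a protein kinase, was at 9.46, 7.65 and 16.2 CPM in db/+, 1.31 and 1.29 CPM in db/db, and 10.9 and 7.36 CPM in KO_db/db. Dmpk, the kinase of the myotonic dystrophy locus, was at 20.5, 20.5 and 15.5 CPM in db/+, 4.13 and 6.35 CPM in db/db, and 18.4 and 10.7 CPM in KO_db/db, where mouse 2 stayed below all db/+ libraries. Skap1, an adaptor known from T-cells, had 46.4, 50.6 and 53.8 CPM in db/+, 16.8 and 19.8 CPM in db/db, and 35.6 and 44.5 CPM in KO_db/db. Ret, a receptor tyrosine kinase for neurotrophic factors of the GDNF family, and Robo2, a receptor for Slit proteins, had db/db means of 45.0% and 45.6% and KO_db/db means of 117% and 97.0% of db/+.

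**Figure D2:**
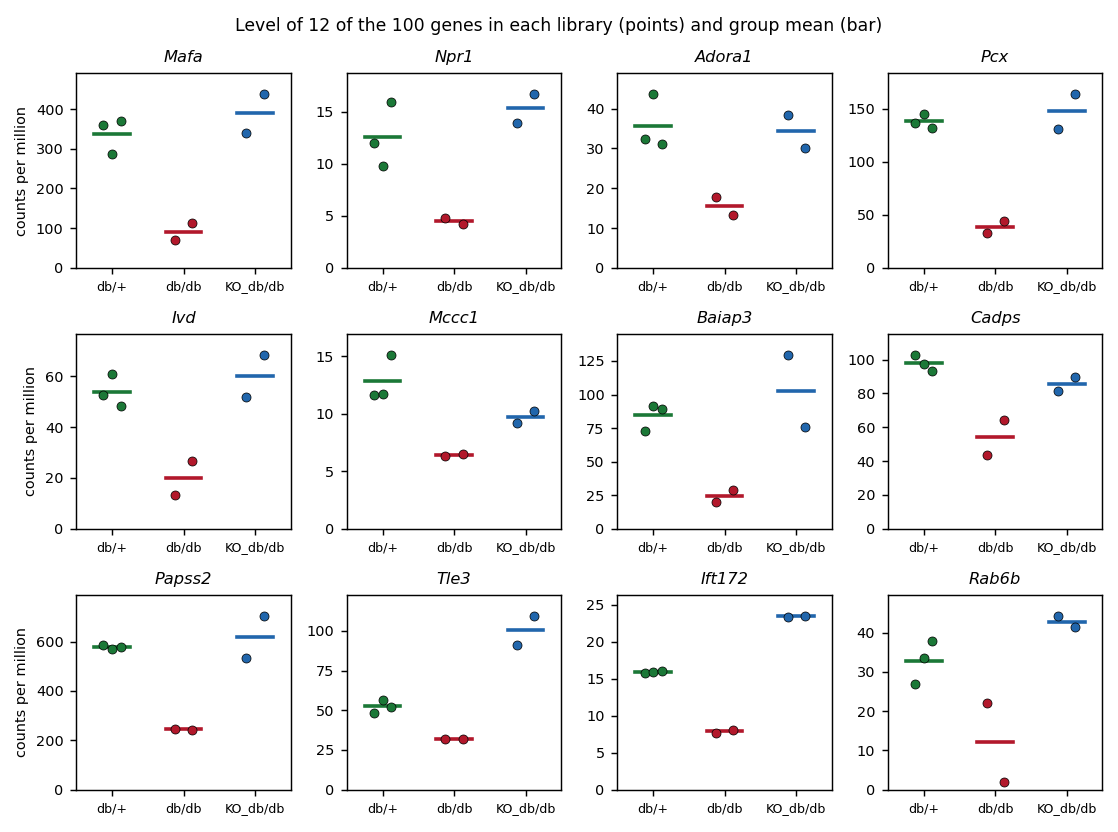
CPM (vertical axes, from 0) of 12 of the 100 genes in db/+, db/db and KO_db/db; points are libraries and bars are group means. In every panel both db/db points lie below all others, and for Tle3, Ift172 and Rab6b both KO_db/db points lie above all db/+ points.

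Mitochondrial enzymes and carriers formed a group of 14 genes with a median of 43.7% of db/+ in db/db, the lowest of the 9 role groups, and of 91.7% in KO_db/db. Pcx encodes pyruvate carboxylase, which makes oxaloacetate from pyruvate. Its level was 137, 145 and 132 CPM in db/+, 32.8 and 44.5 CPM in db/db, and 131 and 164 CPM in KO_db/db. The db/db mean was 28.0% and the KO_db/db mean 107% of db/+, and the KO_db/db values bracketed the db/+ values. Mpc1, a subunit of the carrier that brings pyruvate into mitochondria, was at 38.4, 34.1 and 28.9 CPM in db/+, 17.6 and 21.5 CPM in db/db, and 25.3 and 28.0 CPM in KO_db/db, where both values were below the db/+ range. Pcx and Mpc1 were 2 of 32 listed genes of glucose handling, of which 28 reached 10 CPM in db/+, beside 100 of all 7000 genes at that level. The glucose transporter gene Slc2a2 was at 11.9% of db/+ in db/db and 29.9% in KO_db/db, and the glucose-6-phosphatase gene G6pc2 at 52.7% and 41.9%, so neither met the rule.

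Pcx belongs to the enzymes that carry biotin, and 7 further genes of biotin enzymes, biotin uptake and branched-chain amino acid breakdown were among the 100. Ivd, isovaleryl-CoA dehydrogenase of the leucine pathway, was at 52.8, 60.8 and 48.4 CPM in db/+, 13.2 and 26.6 CPM in db/db, and 51.7 and 68.4 CPM in KO_db/db. Mccc1, the biotin-bearing subunit of methylcrotonyl-CoA carboxylase in the same pathway, was at 11.6, 11.7 and 15.1 CPM in db/+, 6.31 and 6.47 CPM in db/db, and 9.16 and 10.2 CPM in KO_db/db. It had the lowest KO_db/db mean of the set relative to db/+, 75.6%. Pcca, the biotin-bearing subunit of propionyl-CoA carboxylase, had means of 44.6% in db/db and 91.1% in KO_db/db, and Mmut, the mutase that acts after it, of 42.7% and 92.6%. The db/db libraries of Mmut differed, with 11.4 CPM in mouse 1 and 24.8 CPM in mouse 2. Acadsb and Hibadh, of isoleucine and valine breakdown, had 56.3% and 59.3% in db/db and 92.2% and 84.3% in KO_db/db. Slc5a6, the transporter that takes up biotin and pantothenate, was at 50.5% and 94.9%.

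A list of 33 genes of these pathways was drawn up after the values were seen, so it was not tested. Of the 26 with at least 10 CPM in db/+, 11 (42.3%) were lower in both db/db libraries than in every db/+ library, against 12.7% of the 7000 genes at that level. The rule used this comparison and the list was drawn up because it held members, so nothing is read from these shares. Of those 26, 8 were among the 100, and Mccc2 and Mcee were candidates ranked below them. The other gene of the 11 was Acad8, an acyl-CoA dehydrogenase of valine breakdown, at 89.04% of db/+ in db/db and 76.9% in KO_db/db. Pccb, a subunit of propionyl-CoA carboxylase, was at 89.02% and 111%, and its db/db libraries overlapped with db/+. Acaca, acetyl-CoA carboxylase, which also carries biotin and starts fatty acid synthesis, was at 423% of db/+ in db/db and 180% in KO_db/db. The db/db libraries of Acaca differed, with 131 CPM in mouse 1 and 61.2 CPM in mouse 2. Hlcs, which attaches biotin to these enzymes, was at 169% and 149%, and the branched-chain dehydrogenase subunits Bckdha and Bckdhb were at 146% and 148% in db/db. The median over the 26 was 106% in db/db and 100.3% in KO_db/db.

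**Figure D3:**
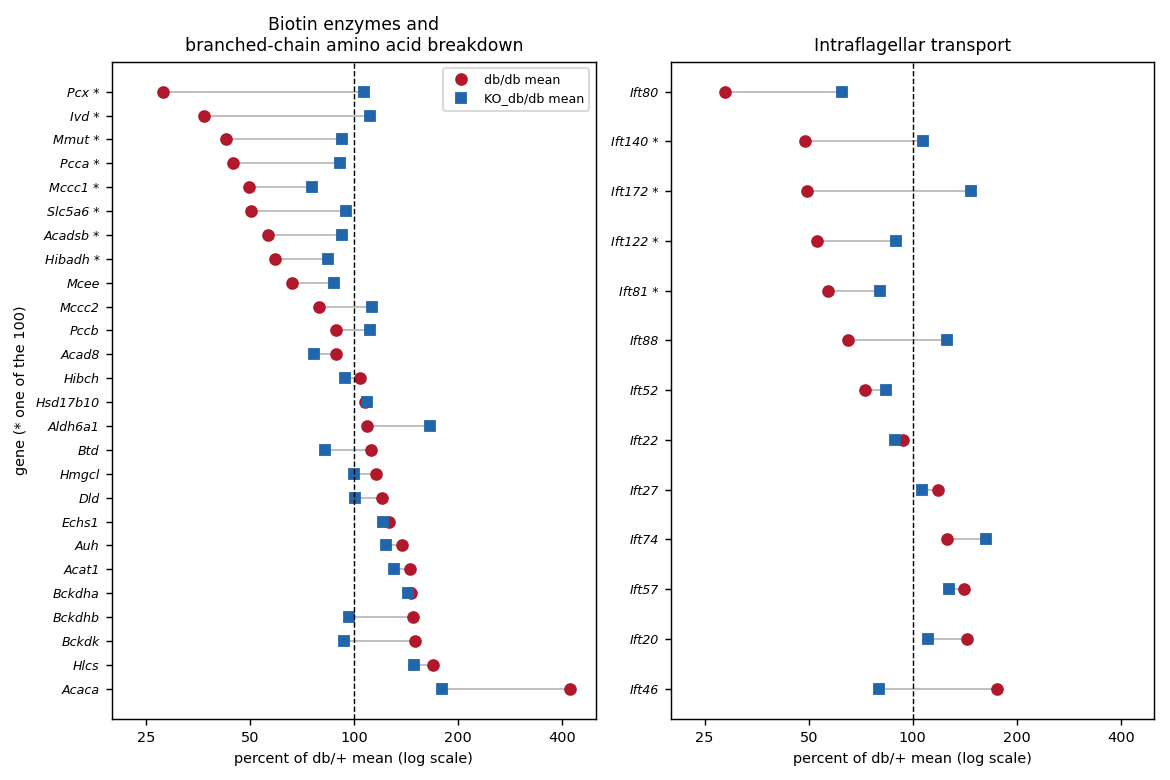
Group means of db/db (red circles) and KO_db/db (blue squares) as percent of the db/+ mean, on a log scale, for genes with at least 10 CPM in db/+ among biotin enzymes and branched-chain amino acid breakdown (left) and intraflagellar transport (right); asterisks mark genes among the 100. The db/db means run from Pcx at 28.0% (left) and Ift80 at 28.6% (right), at the top, to genes above 100% at the bottom, up to Acaca at 423%. The db/db libraries of Acaca differed, at 131 and 61.2 CPM.

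Other mitochondrial genes serve amino acid and redox chemistry. Gcat, which works in threonine breakdown, was at 20.02, 18.6 and 18.7 CPM in db/+, 3.74 and 5.53 CPM in db/db, and 29.9 and 16.3 CPM in KO_db/db, so that the KO_db/db libraries lay on both sides of db/+. Gatm, the first enzyme of creatine synthesis, was at 24.1, 25.3 and 13.6 CPM in db/+, 7.80 and 6.29 CPM in db/db, and 18.8 and 14.3 CPM in KO_db/db. Nnt, the nicotinamide nucleotide transhydrogenase that is partly deleted in the C57BL/6J strain, was at 65.8, 69.1 and 77.3 CPM in db/+, 13.2 and 28.9 CPM in db/db, and 43.6 and 69.7 CPM in KO_db/db. The Nnt allele of these mice is not given in the sources used here. Mipep, a peptidase that trims imported proteins, was at 14.2, 14.9 and 14.8 CPM in db/+, 6.38 and 7.38 CPM in db/db, and 11.6 and 10.5 CPM in KO_db/db, and was with Mccc1 one of the 2 lowest in KO_db/db relative to db/+. Mtch1, an outer-membrane protein, was at 233, 230.1 and 189.6 CPM in db/+, 118 and 155 CPM in db/db, and 169 and 234 CPM in KO_db/db. Aldh4a1, of proline breakdown, differed most between the db/db libraries in this group, with 2.29 CPM in mouse 1 and 8.29 CPM in mouse 2 against 11.7, 11.03 and 15.2 CPM in db/+ and 11.9 and 14.8 CPM in KO_db/db.

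A group of 8 genes acts in vesicle traffic and secretion, and its medians were 50.6% of db/+ in db/db and 87.9% in KO_db/db. Baiap3, a relative of the Munc13 priming factors that works with dense-core vesicles, was at 73.0, 91.7 and 89.2 CPM in db/+, 19.8 and 28.9 CPM in db/db, and 129 and 75.6 CPM in KO_db/db. Cadps, a priming factor of dense-core vesicles, was at 103, 97.5 and 93.5 CPM in db/+, 43.8 and 64.5 CPM in db/db, and 81.5 and 89.8 CPM in KO_db/db. It was 1 of 37 listed genes of granule exocytosis, of which 30 reached 10 CPM in db/+, beside 100 of all 7000 genes at that level. Both KO_db/db values of Cadps were below the db/+ range. Ica1l, related to the islet autoantigen ICA1, was at 23.3, 23.4 and 24.1 CPM in db/+, 7.83 and 8.09 CPM in db/db, and 23.8 and 13.5 CPM in KO_db/db, where mouse 1 was within the db/+ range and mouse 2 below it. Sort1, the sorting receptor sortilin, had both KO_db/db libraries above all db/+ libraries, with a mean of 130% of db/+ against 61.9% in db/db. Snap23, Vps8 and Vps37b, of membrane fusion and endosomes, had db/db means of 50.2% to 57.9% and KO_db/db means of 78.1% to 88.3%.

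The db/db libraries disagreed for Rab6b and St8sia5. Rab6b, a small GTPase of Golgi traffic, was at 26.99, 33.6 and 37.8 CPM in db/+, 22.0 and 1.97 CPM in db/db, and 44.3 and 41.3 CPM in KO_db/db. The db/db mean of 36.6% of db/+ thus rests on mouse 2, the SD of the db/db libraries (14.2 CPM, n = 2) was larger than their mean (12.01 CPM), and mouse 1 lay just under the lowest db/+ library. St8sia5, a sialyltransferase of ganglioside synthesis, was at 12.5 and 2.4995 CPM in db/db against 20.6, 17.5 and 19.2 CPM in db/+ and 13.1 and 27.6 CPM in KO_db/db. Over the 100 genes, db/db mouse 1 was the lower of the db/db libraries in 72, with a median ratio to mouse 2 of 0.798, against 52.2% and 0.987 for the 7000 genes. Aldh1a3 was also lower in mouse 1, 118 against 238 CPM.

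The role group named adhesion, surface and secreted proteins held 16 genes, some of which encode proteins inside the cell. Its medians were 46.9% of db/+ in db/db and 87.2% in KO_db/db. Carmil3, a regulator of actin capping, was at 16.6, 16.3 and 15.7 CPM in db/+, 3.70 and 5.59 CPM in db/db, and 23.7 and 22.1 CPM in KO_db/db, where both values exceeded all db/+ libraries and the mean was 141% of db/+. Dlgap1, a scaffold protein of synapses, had a like position, with 9.85, 13.0 and 11.3 CPM in db/+, 3.56 and 7.50 CPM in db/db, and 15.7 and 16.7 CPM in KO_db/db. Rnase4, a secreted ribonuclease whose locus is shared with Ang, was at 491, 516 and 449 CPM in db/+, 204 and 264 CPM in db/db, and 635 and 641 CPM in KO_db/db. The transcripts of Rnase4 and Ang share 5′ exons, so the division of reads between them is uncertain. Ang itself was at 13.2 to 31.5 CPM across libraries.

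Other genes of that role group stayed below or around db/+ in KO_db/db. Cdh8, a cadherin, was at 67.6, 50.7 and 63.5 CPM in db/+, 16.5 and 24.4 CPM in db/db, and 46.6 and 48.4 CPM in KO_db/db. Enpp5, a member of the ectonucleotide pyrophosphatase family, was at 213, 243 and 207 CPM in db/+, 85.8 and 116 CPM in db/db, and 176 and 162 CPM in KO_db/db. Both KO_db/db values of Cdh8 and of Enpp5 were below all db/+ values. Olfm4, a secreted olfactomedin, was at 14.9, 15.9 and 11.6 CPM in db/+, 3.92 and 5.205 CPM in db/db, and 12.5 and 10.5 CPM in KO_db/db. Otoa, a protein known from the inner ear, was at 8.96, 10.7 and 13.4 CPM in db/+, 2.65 and 3.79 CPM in db/db, and 13.9 and 6.28 CPM in KO_db/db, the highest ratio between the KO_db/db libraries in the set (2.21). Itgav, an integrin chain, and Nectin3, a cell adhesion molecule, had db/db means of 60.9% and 62.6% and KO_db/db means of 83.6% and 81.0%.

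Transporters numbered 5, with medians of 54.7% in db/db and 94.9% in KO_db/db. Slc7a8, a carrier of neutral amino acids, was at 234, 219 and 291 CPM in db/+, 124 and 179.9 CPM in db/db, and 252 and 295 CPM in KO_db/db. Slc3a2, the heavy chain that brings this carrier to the membrane, was at 201, 184 and 192 CPM in db/+, 98.8 and 126 CPM in db/db, and 150.2 and 176 CPM in KO_db/db. The light chain thus reached 110.2% and the heavy chain 84.8% of db/+. Slc6a19, another carrier of neutral amino acids, was at 13.0, 16.7 and 12.7 CPM in db/+, 4.02 and 5.85 CPM in db/db, and 13.1 and 14.2 CPM in KO_db/db.

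In other metabolism and redox chemistry, 14 genes had medians of 54.5% in db/db and 97.6% in KO_db/db. Papss2, which makes the activated sulfate used by sulfotransferases, was at 586, 570.5 and 579 CPM in db/+, 245 and 243 CPM in db/db, and 535 and 705 CPM in KO_db/db. The db/+ and db/db libraries of Papss2 varied little, with SDs of 7.84 CPM (n = 3) and 1.09 CPM (n = 2), and KO_db/db varied more, with an SD of 120.3 CPM (n = 2). Bpnt1, which removes the nucleotide left after sulfate transfer, had means of 61.3% in db/db and 83.4% in KO_db/db. Ftl1, the ferritin light chain that stores iron, was at 1205, 1357 and 1076 CPM in db/+, 597 and 661 CPM in db/db, and 1046 and 1353 CPM in KO_db/db. A pseudogene copy, Ftl1-ps1, was counted at 2.09 to 11.3 CPM, and reads shared with such copies make both levels uncertain. Gad1, which makes the transmitter GABA, and Khk, the fructose kinase, were both near 118% of db/+ in KO_db/db and at 47.2% and 54.0% in db/db. Scly and Selenow, of selenium metabolism, were at 54.9% and 59.3% in db/db and at 84.5% and 87.3% in KO_db/db, and the glutathione transferases Gstm2 and Gstt1 at 52.4% and 61.3% and at 107% and 96.3%.

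Cilia and microtubules account for 9 genes, with medians of 54.9% in db/db and 99.7% in KO_db/db, the KO_db/db median highest among the roles. Intraflagellar transport moves cargo along the primary cilium, a signaling antenna of β-cells, by trains of the A and B complexes. Ift172, of complex B, was at 15.8, 15.9 and 16.1 CPM in db/+, 7.65 and 8.12 CPM in db/db, and 23.4 and 23.5 CPM in KO_db/db. In CPM the groups were apart by more than the range within any of them, which depends on the scaling of the libraries. The KO_db/db mean of Ift172 was 147% of db/+ in CPM and 128% when scaled by the trimmed mean of M-values, described below. The quasi-likelihood F test of edgeR did not call it between KO_db/db and db/+ (adjusted p 0.073). Ift140 and Ift122, of complex A, had means of 48.7% and 52.8% in db/db and of 107% and 89.5% in KO_db/db, and Ift81, of complex B, of 56.8% and 80.3%. Hdac6, the deacetylase of tubulin, was at 69.0, 76.3 and 57.1 CPM in db/+, 29.6 and 53.9 CPM in db/db, and 82.9 and 95.2 CPM in KO_db/db, above all db/+ libraries. Wdpcp, a planar polarity effector needed for cilia, was at 54.9% and 102%.

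The intraflagellar transport genes were also set out as a family after the values were seen, with no test. Of 14, 13 had at least 10 CPM in db/+, and 7 of these (53.8%) were below every db/+ library in both db/db libraries, against 12.7% of the 7000 genes. The rule used this comparison and the family was set out because it held members, so nothing is read from these shares. Of the 13, 4 were among the 100, while Ift52 and Ift88 were candidates ranked below them. Ift80 had the lowest db/db mean of the family, 28.6%, but reached 62.3% in KO_db/db and was outside the rule. Ift20, Ift27, Ift46, Ift57 and Ift74 had db/db means above that of db/+, at 143%, 119%, 175%, 140% and 126%.

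The remaining 9 genes had medians of 57.7% and 92.3%. They include Ndrg1, a stress-responsive gene, with 40.2 and 94.5 CPM in the db/db libraries against 135 to 144 CPM in db/+, and Rnf5, a ubiquitin ligase of the endoplasmic reticulum. The last genes taken lay close to the first left out. Eml2, Thada and Rnf5 closed the set with db/db means of 61.2%, 61.0% and 62.6% of db/+, and Tmed8, Jph3 and Hook3 came next with 63.3%, 60.3% and 62.3%. Since the ranking adds 1 CPM, Jph3, at 11.2 CPM in db/+, ranked below genes of higher level with like percentages. Rnf5 was at 46.6, 41.5 and 50.8 CPM in db/+, 29.2 and 28.8 CPM in db/db, and 35.4 and 42.3 CPM in KO_db/db. Hook3 was at 31.6, 24.97 and 28.3 CPM in db/+, 18.9 and 16.4 CPM in db/db, and 24.9 and 26.4 CPM in KO_db/db, a pattern much like it.

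In 68 genes the KO_db/db and db/+ libraries overlapped, in 9 both KO_db/db libraries were above all db/+ libraries, and in 23 both were below. Of the 7000 genes with at least 10 CPM in db/+, the shares were 45.7%, 37.4% and 17%. The rule used this contrast, so nothing is read from the counts. The 9 were Carmil3, Rab6b, Rnase4, Ift172, Dlgap1, Tle3, Sort1, Hdac6 and Thada. The 23 below include Fkbp1b, Cadps, Mpc1, Mccc1, Ift81, Slc3a2 and Enpp5. KO_db/db mouse 1, the library with more acinar transcripts, was the lower of the KO_db/db libraries in 71 of the 100 genes, against 92.7% of the 7000 genes.

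**Figure D4:**
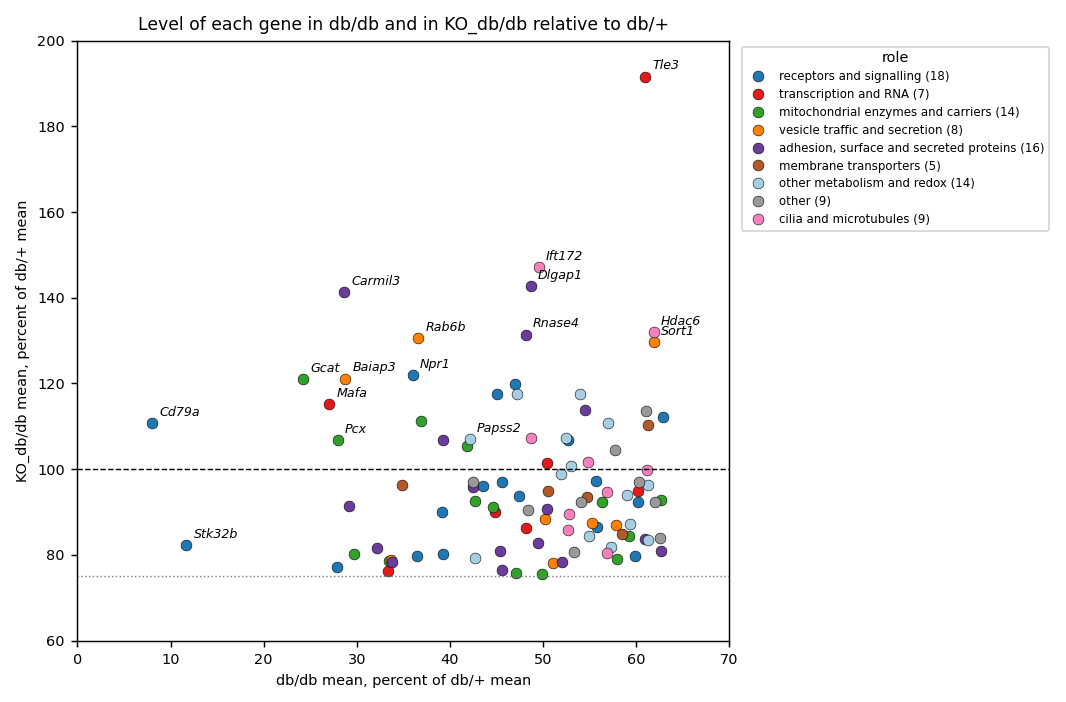
Each of the 100 genes by its db/db mean (horizontal axis) and KO_db/db mean (vertical axis), both as percent of its db/+ mean, colored by role with the number of genes in each role. The dotted line at 75% is the limit of the rule and the dashed line at 100% the db/+ level, above which lie 34 genes, with Tle3 at 192% farthest up and Cd79a at 8.01% farthest left.

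In fits across all genes, the quasi-likelihood F test of edgeR, with p-values adjusted by Benjamini-Hochberg and a threshold of 0.05, gave calls that restate the choice of the set, and nothing is read from their number. Between db/db and db/+, 99 of the 100 were called lower, beside 18% of 13406 genes tested called lower and 19.9% called higher. The gene without a call was Rab6b. Between KO_db/db and db/db, 5 were called higher, beside 0.126% of 13486 genes called higher and 0.193% called lower, and 98 had an unadjusted p under 0.05 and were higher, beside 11% of all genes tested. The 5 were Pcx, Fkbp1b, Npr1, Papss2 and Tle3, with log2 fold changes of 2.194 ± 0.182, 1.291 ± 0.130, 2.020 ± 0.195, 1.598 ± 0.163 and 1.914 ± 0.131 (± SE). Each SE was calculated back from the F statistic, as the size of the fold change over the square root of F. Mafa had a log2 fold change of 2.35 ± 0.26 and was not called. Between KO_db/db and db/+, 29 were called lower and Tle3 higher, beside 17.9% of 13228 genes called lower and 20.5% called higher. The median log2 fold changes of the set in the 3 fits were -1.48, 1.18 and -0.30, beside 0.0064, -0.023 and -0.0034 over all genes tested. In the comparison of KO_db/db with db/db, DESeq2 called 95 of the 100 higher, beside 3.81% of the 19621 genes given a fold change. These genes were not filtered for low counts beforehand as in edgeR, so this share and the 0.126% have unlike bases. By edgeR, 0 of the 100 were called at an adjusted p under 0.01 or with the mouse number as a block.

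The level reached in KO_db/db depended on how libraries were scaled. Scaling by the trimmed mean of M-values (TMM), which centers the bulk of genes, moved the median of genes with at least 10 CPM in db/+ by 0.48 on the log2 scale for db/db over db/+ and by 0.22 for KO_db/db over db/+. The TMM factors were 1.20 and 1.23 in db/db, 0.869 to 0.874 in db/+, and 0.886 and 1.15 in KO_db/db. With TMM the median db/db level of the 100 was 36.1% and the median KO_db/db level 80.6% of db/+, with a range of 63.8% to 165%. With TMM, 68 kept a KO_db/db mean of at least 75% of db/+, and 15 rather than 34 exceeded db/+. With acinar markers and the Reg family of secreted lectins left out of the column sums, the median KO_db/db level was 104%, and the part of these transcripts in the levels was not tested further.

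**Figure D5:**
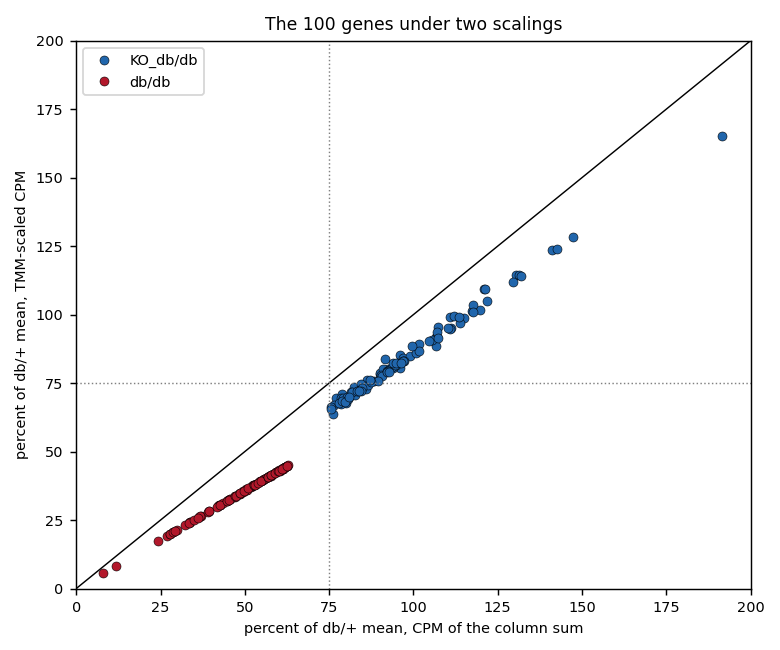
Percent of the db/+ mean in db/db (red) and KO_db/db (blue) for the 100 genes, by CPM of the column sum (horizontal axis) and by TMM-scaled CPM (vertical axis); the diagonal marks equal values and dotted lines mark 75%. All points lie below the diagonal, and 32 of the blue points are below 75% after TMM scaling.

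Of 35 listed genes of mature β-cell identity, 16 were below every db/+ library in both db/db libraries, against 912 of 7150 genes at 10 CPM or more in db/+. In 11 of the 16 both KO_db/db libraries were above db/db, against 345 of the 912, and 2, Mafa and Npr1, met the whole rule, against 234 of the 912. Slc30a8, the zinc transporter of insulin granules, was at 30.3% of db/+ in db/db and 66.7% in KO_db/db, and Ucn3, a hormone of mature β-cells, at 18.5% and 53.3%. Trpm5, a calcium-activated cation channel, was at 2.00% and 23.2%, and Ins1 at 38.3% and 63.9%. The db/db libraries differed for Ins1, with 52379 CPM in mouse 1 and 23082 CPM in mouse 2. In the edgeR fits, 23 of the 35 were called lower and 4 higher in db/db than in db/+, 3 above db/db in the knockout (Npr1, Trpm5 and Ucn3), and 15 lower and 4 higher in KO_db/db than in db/+. The shares of all genes tested were, in the same order, 18% and 19.9%, 0.126%, and 17.9% and 20.5%. None of the listed ion channels, zinc transporters, lipid genes or markers of other cell types was among the 100. The marker lists of ductal, α, δ, PP, endothelial, stellate, macrophage, lymphocyte and Schwann cells held no member either. The floor of 10 CPM in db/+ limited these counts. It was reached by 0 of 14 lymphocyte, 0 of 15 stellate, 1 of 17 macrophage, 6 of 16 ductal and 9 of 18 α-cell markers. Of all 7000 genes at that level 100 were taken, so nothing is read from these counts. The part of these cells in the levels was not tested. Summed α-cell markers, which include genes used by β-cells, ran from 2312 to 2364 CPM in KO_db/db, 4488 to 4900 CPM in db/db and 1890 to 2511 CPM in db/+. Summed δ-cell markers ran from 718 to 756 CPM in KO_db/db, 549.8 to 633 CPM in db/db and 679 to 2310.1 CPM in db/+. Of these, Sst, the hormone somatostatin, was at 1973, 636 and 321 CPM in db/+, 195 and 101 CPM in db/db, and 559 and 574 CPM in KO_db/db. Both db/db libraries of Sst were below all others. Of 10 δ-cell markers tested, Sst and Rbp4 were called lower and Casr and Sstr1 higher in db/db than in db/+. Between KO_db/db and db/db, Pdyn was called lower and 0 were called higher. The part of these genes in the levels of the 100 was not tested. Summed PP-cell markers ran from 821 to 841 CPM in KO_db/db, 504 to 778 CPM in db/db and 167 to 534 CPM in db/+. Macrophage markers summed to 21.1 to 41.6 CPM in KO_db/db, 71.1 to 93.3 CPM in db/db and 32.8 to 54.5 CPM in db/+. A list of 26 immediate early genes, such as Fos and Egr1, summed to 587 to 1372.5, 1893 to 3577 and 443 to 506 CPM. Of 24 tested, 16 were called higher and 2 lower in db/db than in db/+, beside 19.9% and 18% of all genes. The part of these lists in the levels was not tested.

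Position and promoter make-up were not used by the rule. Coordinates were taken from GENCODE M21 on GRCm38 for 99 genes and from RefSeq for Mmut. Mafa lies at chr15:75745490-75748228, Pcx at chr19:4510472-4621752, Npr1 at chr3:90450591-90465866, Papss2 at chr19:32595790-32667187, Tle3 at chr9:61372366-61418497 and Ift172 at chr5:31253277-31291116. Chromosome 17 held 12 of the 100, against 4.68% of the genes with at least 10 CPM in db/+, and chromosome 14 held 9, against 3.55%. Of the 12, 9 lay in one stretch, chr17:24937419-46725541, which the members themselves set and which holds 2.23% of the genes with at least 10 CPM and 1.56% of the other genes that were low in db/db. They were Jpt2, Ift140, Baiap3, Mtch1, Rnf5, Atf6b, Mmut, Enpp5 and Pex6. No test was made of a stretch chosen in this way. The db allele came from a B6.BKS(D) line, the BKS-derived segments that each mouse carried are not given in the sources used here, and their relation to this stretch was not tested. Aldh1a3 is on chromosome 7, where the nearest of the 100 was Ftl1 at 20.9 Mb, and Lepr is on chromosome 4, where the nearest was Camk2n1 at 36.6 Mb. Within 200 kb of each other lay 7 pairs, the closest being Ddt and Gstt1 at 10.4 kb and Atf6b and Rnf5 at 43.5 kb.

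The median span of a gene, from first to last annotated base, was 39.1 kb. It was 27.3 kb for genes with at least 10 CPM in db/+ and 22.5 kb for the other genes that were low in db/db. The median longest transcript was 3665 bases, against 3635 and 3182.5 bases in the same order. The promoter windows of the 84 matched genes had a median G and C content of 61%, against 62% for genes with at least 10 CPM and 60% for the other genes low in db/db, and an observed over expected CpG ratio of 0.74, against 0.81 and 0.74. The MAF half-site TGCTGA was found on either strand in 15 of the 84 windows (17.9%), in 14.1% of windows of genes with at least 10 CPM, in 18.1% of windows of the other genes low in db/db and in 19.5% of all 32851 windows. Shares of all windows, here and below, cover every window, whatever the level of the gene or its number of windows. The core TGCAGC of the insulin promoter's C1 element was in 26 of the 84 (30.95%), against 20.6%, 23.0% and 20.7%. The TATA box TATAAA was in 2 of the 84 (2.38%), against 6.04%, 7.34% and 13.6%, and the GC box GGGCGG in 64.3%, against 69.5%, 62.3% and 35.7%. For the other motifs, the share among the 84 came first and that among genes with at least 10 CPM second: the NEUROD1 E-box CAGATG was in 10.7% and 9.87%, the RFX half-box GTTGCC in 8.33% and 12.9%, the nuclear receptor half-site AGGTCA in 11.9% and 11.2%, the E-box CACGTG in 9.52% and 11.2%, and the NFAT core GGAAAA in 21 of the 84 and in 20.2%. In the same order, the homeodomain core TAATTA was in 2.38% and 1.91%, the FOXA motif TGTTTAC in 1.19% and 2.25%, the HNF1 half-site GTTAAT in 5.95% and 3.78%, the cyclic AMP element TGACGTCA in 1.19% and 3.56%, and the AP-1 motif TGAGTCA in 1.19% and 3.003%. All motifs were searched on both strands and one by one, so matches of different motifs may overlap, and a match describes the letters only.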

How the data were processed

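The authors prepared poly-A libraries from sorted β-cells, demultiplexed reads with bcl2fastq 2.19 and quantified genes with kallisto 0.44.0 on GRCm38, as the methods and the submitters' processing notes state. The deposited table holds estimated counts of 35013 genes in 7 libraries, not normalized, and 0 sample columns were left unused. Rows without a gene name numbered 0. Titles number the mice, so libraries of a group are separate animals.

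The 100 genes, their roles and all gene lists were chosen with earlier results of these data known. CPM are counts over the column sum, scaled to 1000000, and 3 counts correspond to 0.0837 to 0.109 CPM. Counting error only is covered by that limit. Estimated counts were rounded and fitted for each pair of groups with edgeR 4.0.16 in R 4.3.3 (filterByExpr with a minimum count of 10, TMM, quasi-likelihood test, Benjamini-Hochberg over all genes tested). DESeq2 1.42.0, the tool the authors used, and limma 3.58.1 were alternatives, and scripts were tested on simulated data. No library pair of a group agreed within sampling noise.

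Genes named in full were the 20 with the largest difference between db/db and db/+, the 10 highest in db/+, the 5 highest and 5 lowest in KO_db/db over db/+, members of the lists, genes the study names and the last 3. Others were named after their values were seen. Planned protein features were not computed. The methods describe a gate on YFP and on AldeRed, a fluorescent ALDH substrate, for the sort of ALDH-positive β-cells. Whether the sequenced libraries were gated in that way is not given in the sources used here.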

Additional observations from a re-analysis of the deposited data

How the results depend on the processing

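Against 234 candidates in the rule as given, the count was 1000 with TMM-scaled CPM, 1030 with RLE-scaled CPM, 417 with acinar markers and the Reg family left out of the column sum, 420 with no floor on the db/+ level and 95 with a KO_db/db mean of at least that of db/+. Leaving out 1 library gave 220 to 539 candidates, with 489 without KO_db/db mouse 1 and 539 without db/db mouse 2. Of the 100 genes, 43 were taken again when the KO_db/db limit was 0.5 of db/+ and 34 when it was 1, and 68 with TMM. The cause of these shifts was not tested, except that a lower limit admits more candidates to the ranking.

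Of the 100, 5 were called between KO_db/db and db/db by edgeR with adjustment over all genes, beside 0.126% of all genes tested called higher. The count was 95 with DESeq2 (3.81% of all genes given a fold change, not filtered for low counts beforehand). It was 97 without a filter on low counts (4.1%), 85 with all 7 libraries in one fit (3.66%), 11 with limma-trend (0.215%) and 9 without acinar and Reg genes (0.171%). At an adjusted p under 0.01 the count was 0 (0%), where 98 had an unadjusted p under 0.05 (11%). Leaving out 1 library gave 0 to 25 (0% to 1.21% of all genes), with 3 without KO_db/db mouse 1, 21 without KO_db/db mouse 2, 0 without db/db mouse 1 and 25 without db/db mouse 2. A lone library was assumed to vary like the other group. Between KO_db/db and db/+, 30 were called (38.4% of all genes in either direction), 19 with all 7 libraries in one fit (33.4%), 5 at an adjusted p under 0.01 (18.1%) and 15 to 28 without 1 library (22.3% to 36.4%), with 17 without KO_db/db mouse 2, 15 without db/+ mouse 1 and 17 without db/+ mouse 2.

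With the mouse number as a replicate block, 0 of the 100 were called between KO_db/db and db/db (0.0667% of all genes) and 13 between KO_db/db and db/+ (28.6%). Deviations of same-numbered libraries correlated over genes at -0.10 to 0.076, so the numbers were not taken to pair mice. Between db/db and db/+, 89 to 100 of the 100 were called lower under the settings tried, beside 8.16% to 18.7% of all genes, in a contrast that the rule used. With promoter windows cut to the 250 bases before the start, the half-site TGCTGA was in 15.5% of the 84 windows, 12.05% of those of genes with at least 10 CPM and 16.1% of all, and the core TGCAGC in 21 of the 84, against 16.5% of both.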
